A study of Mus musculus with 12 samples.

Results

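The 10 genes Fap, Dcn, Lum, Pdgfra, Pdgfrb, Postn, Fn1, Acta2, Thy1 and Grem1, which are commonly used to mark fibroblasts and other mesenchymal cells, were followed in tumor cells isolated from MC38 tumors. They were chosen by symbol through their Ensembl identifiers, and all 10 were found once each among the 33219 features of the count table. MC38 is a mouse colon adenocarcinoma line. The cells carried WT RAC1 or a homozygous A159V change in RAC1, a small GTPase, made by CRISPR knock-in and grown from single-cell clones, so that clone and genotype cannot be told apart. They were injected under the skin of C57BL/6 mice together with Matrigel, and the mice received anti-PD1 or an IgG isotype control. The 4 groups held 3 samples each, 12 in all. For WT these were replicates 1, 2 and 4 under IgG and 1, 2 and 3 under anti-PD1, and for A159V replicates 1, 2 and 5 under IgG and 1, 2 and 3 under anti-PD1. Tumors were dissociated and the tumor cells were isolated with a magnetic bead kit, so RNA of remaining host cells could be present in each sample.

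Fibroblasts build and remodel the extracellular matrix of a tumor. Fibronectin (Fn1) and periostin (Postn) are secreted matrix proteins, and decorin (Dcn) and lumican (Lum) are small leucine-rich proteoglycans that bind collagen fibrils. Pdgfra and Pdgfrb encode the receptors for platelet-derived growth factors, Fap a serine protease of the surface of activated fibroblasts, Acta2 the smooth muscle actin of myofibroblasts and mural cells, and Grem1 a secreted antagonist of bone morphogenetic proteins. Thy1 is a surface protein of fibroblasts and, in mice, also of T cells. Several of these genes are also used by carcinoma cells that have left the epithelial state, so that in isolated tumor cells they can come from the tumor cells or from host cells. In these bulk samples the source of a transcript, fewer cells of a type and less RNA per cell cannot be told apart.

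Total counts ran from 14053582 to 21949942 per sample. Levels are given as CPM, the count of a gene scaled to library size with TMM factors, and a floor of 3 counts corresponded to 0.144 to 0.201 CPM. Of 14340 genes tested, 28% were DEGs in A159V IgG versus WT IgG (edgeR quasi-likelihood test, a log2 fold change over 0.3 in either direction and a Benjamini-Hochberg adjusted p below 0.05). WT IgG replicate 1 stood apart from the other libraries. Its log2 CPM fell with log2 exon length with a slope of −0.23, against −0.09 in WT IgG replicate 2 and −0.02 to 0.07 in the other 10 samples, and it held the highest CPM of all 12 samples for 21.4% of the genes tested. Without it the same 7 of the 10 genes were DEGs under IgG, and the values without it stand beside the results that changed most.

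Defining epithelial genes were nearly absent from the samples, while several mesenchymal genes were abundant. The epithelial defining genes Epcam and Cdx2 had at most 2 counts, and Krt20 at most 3 counts, in every sample, and 9 of 16 epithelial genes were too low to be tested. Vim, the intermediate filament of mesenchymal cells, reached 3906 ± 308 CPM under IgG in WT samples (mean ± SD, n = 3) and 2323 ± 168 CPM in those of A159V. Spp1 and Sparc, both secreted matrix-associated proteins, had means of 2186 and 402 CPM in WT IgG. Of the 7 epithelial genes tested, Tjp1 had means of 98.9 to 206 CPM across the groups. Vil1, Ocln and Muc1 had means of 1.29, 1.97 and 2.11 CPM over all samples. All 20 mesenchymal genes listed were tested, Cdh11 and Tgfbi at means of only 1.52 and 1.95 CPM. The labelled adenocarcinoma cell type was not visible in Epcam, Cdx2 and Krt20. The endothelial defining genes Emcn, Cldn5 and Erg had at most 2 counts in any sample, as did the mural genes Lmod1 and Higd1b. Still, 5 of 12 endothelial markers were high enough to be tested, among them Egfl7 and Cdh5 (means of 12.9 and 7.60 CPM over all samples). Of 18 mural and contractile genes 12 were tested, among them Mcam and Des (means of 12.9 and 6.90 CPM over all samples). The Y-linked genes Ddx3y, Eif2s3y, Kdm5d and Uty also had at most 2 counts in any sample.

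Per kilobase of exon, the 10 genes covered a wide range of levels. Fn1 was the highest of them in all 4 groups, with means of 113 (IgG) and 254 (anti-PD1) CPM per kb in WT and 289 and 168 CPM per kb in A159V. Dcn came next in each group, with 42.1, 51.0, 16.5 and 14.0 CPM per kb in the same order. Pdgfra, Pdgfrb, Lum and Grem1 lay between 3.06 and 6.50 CPM per kb in WT IgG. Postn, Thy1, Acta2 and Fap were the low members there, between 0.512 and 1.26 CPM per kb. On the scale of CPM per kb Fap, often taken as the defining marker of activated fibroblasts, was the lowest of the 10 in WT IgG. In A159V IgG the low end was held by Grem1 at 0, Thy1 at 0.0746 and Postn at 0.135 CPM per kb.

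**Figure D1:**
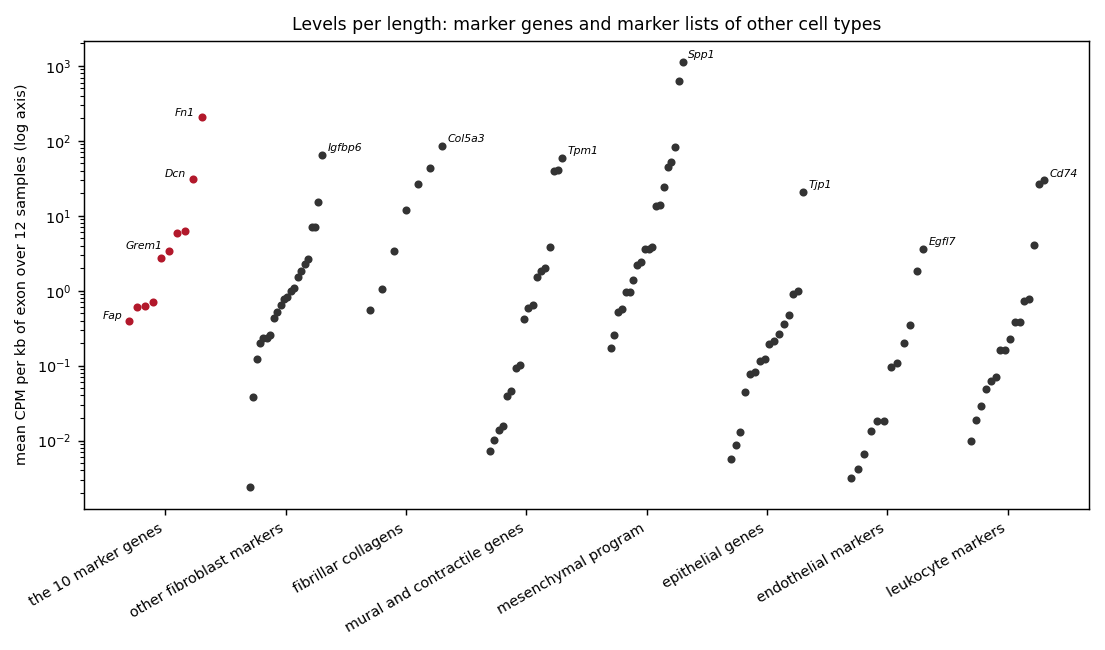
Mean CPM per kb of exon over the 12 samples on a log axis, 1 point per gene, for the 10 marker genes (red) and for lists of fibroblast, collagen, mural, mesenchymal, epithelial, endothelial and leukocyte genes (black). Fn1 and Dcn lie near the top and Fap lies at the bottom of the 10, while most epithelial and endothelial genes lie below 1 CPM per kb.

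In A159V IgG versus WT IgG, which asks how the tumor cells of the mutant differ without treatment, 6 of the 10 genes were lower DEGs (Dcn, Lum, Fap, Postn, Thy1 and Grem1) and 1 was a higher DEG (Fn1), beside 12.4% and 15.6% of all genes tested. Their median log2 fold change was −1.38, beside 0.02 over all genes. The values of 7 genes did not overlap between the groups, beside 35.8% of all genes. Under anti-PD1, A159V versus WT gave 5 lower DEGs (Dcn, Lum, Pdgfrb, Thy1 and Grem1) and 1 higher DEG (Acta2), beside 10.2% and 11.2% of all genes, and 21.4% for both directions. The median was −1.08, beside 0.06 over all genes, and 8 of the 10 genes did not overlap, beside 56.1% of all genes. Dcn and Lum were lower DEGs under both treatments, in separate sets of samples, and both lay above the filter on low counts in all 12 samples. Thy1 and Grem1 were also called under both. They passed that filter (at least 3 samples at 0.532 CPM or more, before TMM scaling) only through the WT samples. Such passing favors lower values in A159V. The counts of lower DEGs, the medians and the counts without overlap given above include these 2 genes, whose calls lend those counts no weight. Without them the lower DEGs are Dcn, Lum, Fap and Postn under IgG and Dcn, Lum and Pdgfrb under anti-PD1. The 10 genes were also chosen with earlier results of these data known.

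Leukocyte markers differed between the same groups. The summed CPM of the 16 listed still overlapped under anti-PD1 (61.2 to 137 in WT, 61.3 to 84.8 in A159V). The mean log2 CPM of the 10 tested was taken as a score. It lay between −0.30 and 0.03 in the 6 A159V samples. In WT it lay between 0.22 and 0.89 under IgG and between 1.46 and 2.22 under anti-PD1. Of the 10 markers in the score, 6 passed the filter on low counts only through the WT samples, so a part of this gap was set by the filter. With this score as a covariate only Fap and Grem1 stayed DEGs under IgG and only Grem1 under anti-PD1, and 395 and 8 genes of all tested were called in place of 4010 and 3075. Since the score does not overlap between the genotypes, leukocyte content and genotype cannot be told apart by this fit. Calls were lost there at differences of about the same size for Dcn (−1.28 under IgG and −1.69 under anti-PD1, adjusted p = 0.18 and 0.706, edgeR) and for Lum under IgG (−2.06, adjusted p = 0.0838). For Postn the log2 fold change under IgG shrank to −0.71 and for Thy1 to −1.73 (adjusted p = 0.747 and 0.484, edgeR).

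**Figure D2:**
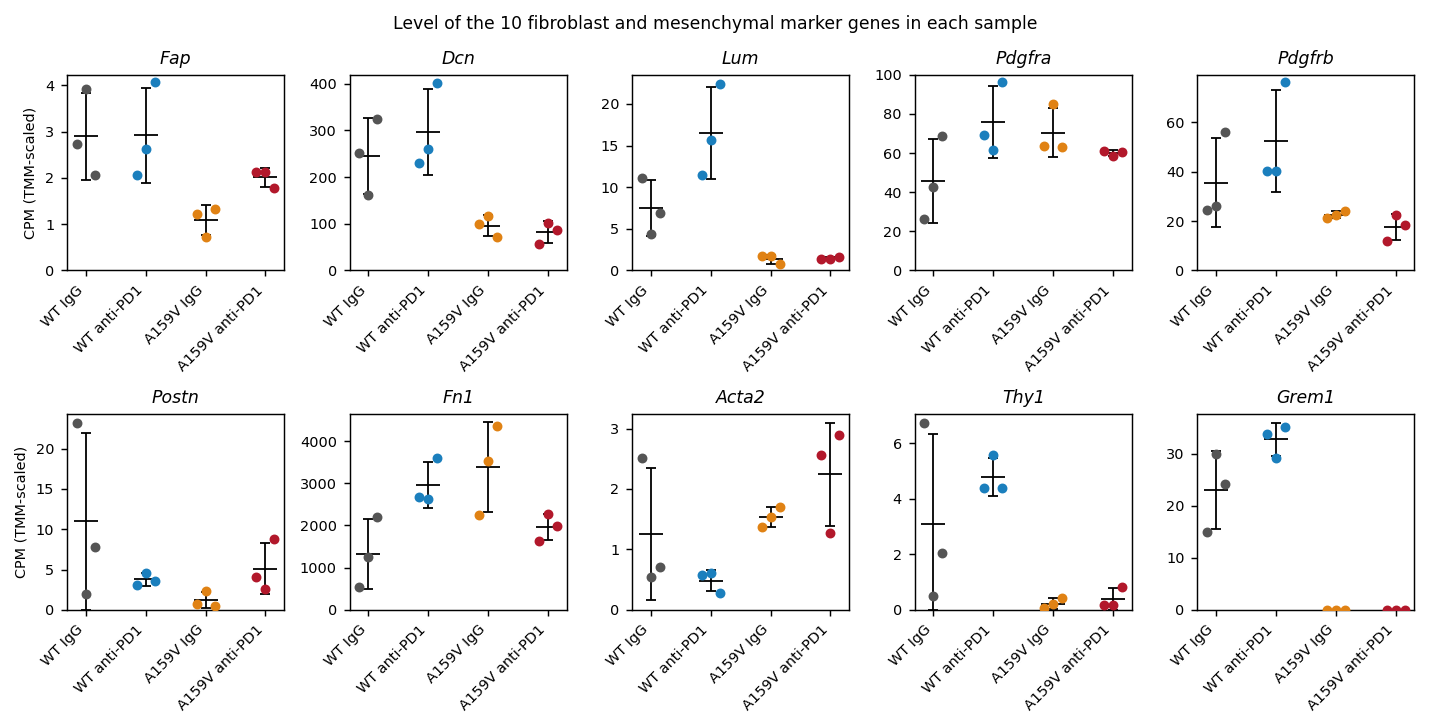
CPM of each of the 10 genes by sample, with groups along the horizontal axis, 1 point per sample, a dash at the mean and bars of 1 SD (n = 3, ended at 0), each panel with its own linear axis from 0. Dcn, Lum, Thy1 and Grem1 lie lower in all 6 A159V samples than in the WT samples of the same treatment, and Grem1 lies at 0 in all 6.

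**Figure D3:**
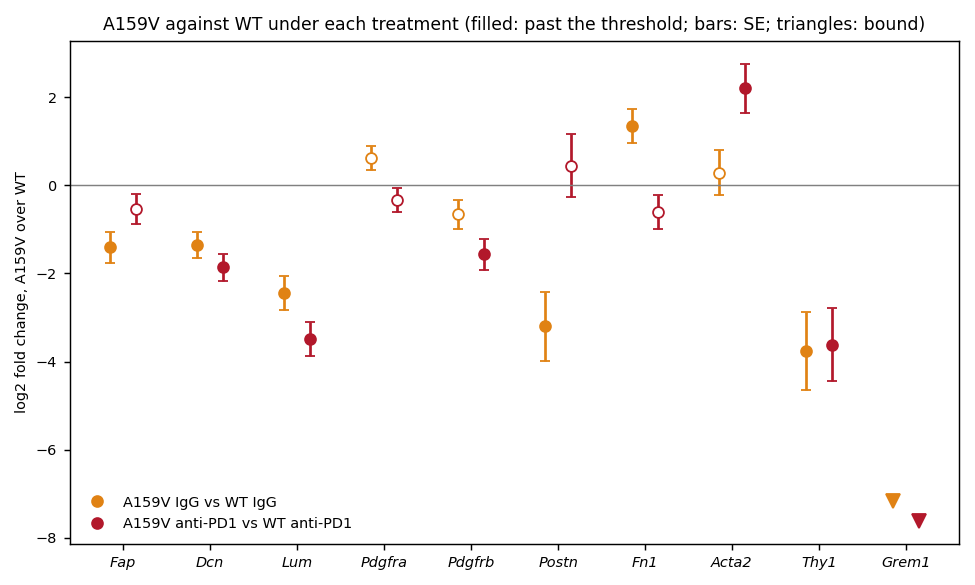
Log2 fold change of A159V over WT for each of the 10 genes under IgG (orange) and anti-PD1 (red), with bars of 1 SE, filled where the gene was a DEG. For Grem1 triangles mark the bounds, 7.18 and 7.62 below 0, set by the 3-count floor, since it had no counts in A159V samples.

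Grem1 was the only member with 0 counts in every sample of one genotype. It had 275, 490 and 481 counts in WT IgG and 654, 436 and 632 counts in WT anti-PD1. In the 6 A159V samples it had 0 counts, out of 60619269 total counts under IgG and 56355555 under anti-PD1. The WT samples thus had at least 275 counts each, and no A159V sample held a read. Against the floor of 3 counts per library, Grem1 was at least 145-fold lower in A159V IgG than in WT IgG and at least 196-fold lower under anti-PD1 (adjusted p = 1.83e-05 and 9.79e-06, edgeR quasi-likelihood test). The bounds set by this floor cover counting error only. The call was kept in every alternative that tested it, and at least 10 counts in every sample removes the gene. Grem1 passed the filter on low counts only through the WT samples. The call and its adjusted p therefore add nothing to the counts themselves.

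The tested genes beside Grem1 on chromosome 2, chosen after their values were seen, did not share its loss. Grem1 (ENSMUSG00000074934) lies on the minus strand at 113746164 to 113758646 in GRCm38, with Fmn1, which encodes the actin nucleator formin 1, on one side and Scg5 and Arhgap11a on the other. Fmn1 rose in A159V IgG, from 7.35 ± 1.44 CPM in WT IgG to 13.7 ± 1.51 CPM (SD, n = 3, log2 fold change 0.90, SE 0.18, adjusted p = 0.00335, edgeR). Under anti-PD1 Fmn1 had 13.2 and 16.4 CPM and did not pass (0.31, SE 0.17, adjusted p = 0.217, edgeR). Aven, a tested gene of the same stretch beyond Fmn1, had 28.0 and 27.5 CPM under IgG, and it rose from 18.2 to 29.4 CPM under anti-PD1 (0.69, SE 0.18, adjusted p = 0.0181, edgeR). Arhgap11a had 68.1 and 87.0 CPM under IgG (0.35, SE 0.14, adjusted p = 0.0783, edgeR). Scg5 had at most 7 counts in any sample and was too low to be tested. Its means in WT and A159V were 0.217 and 0.140 CPM under IgG and 0.340 and 0.0544 CPM under anti-PD1, lower in A159V, so it says nothing firm either way. The 300 bases around the start of Grem1 are shown because this is the gene with no reads in one genotype.

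Grem1, chr2:113758599-113758898, minus strand, GRCm38.p6 (RefSeq): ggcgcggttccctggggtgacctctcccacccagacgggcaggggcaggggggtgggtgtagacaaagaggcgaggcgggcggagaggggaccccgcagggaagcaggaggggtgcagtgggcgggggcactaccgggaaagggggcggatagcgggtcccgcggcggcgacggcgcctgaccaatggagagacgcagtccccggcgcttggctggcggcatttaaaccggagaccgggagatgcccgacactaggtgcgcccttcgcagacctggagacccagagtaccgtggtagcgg

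This window runs from 250 bases before the start to 50 bases after it. Promoters of 4 of the 10 genes were in the RefSeq table used (Grem1, Pdgfra, Postn and Acta2). They were searched on both strands for the AP-1 motif TGANTCA, the TEAD motif CATTCC, the RBPJ motif GTGGGAA and the letters TATAAA. The CArG box bound by serum response factor was searched as CCWWWWWWGG, where W is A or T, and only exact matches counted. In this order the motifs occur in 7.81%, 14.7%, 6.38%, 13.6% and 1.63% of the 32851 promoters of the same length. No motif matched in the Grem1 and Pdgfra windows, which says only that these letters are not there. The same holds for the motifs not found in the Acta2 and Postn windows. Acta2 held the TEAD letters on the opposite strand, 146 bases before the start, and Postn held TATAAA 26 bases before one of its starts. Both windows are shown, with the match in capitals, because they hold the matches found.

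Acta2, chr19:34255324-34255623, minus strand, GRCm38.p6 (RefSeq): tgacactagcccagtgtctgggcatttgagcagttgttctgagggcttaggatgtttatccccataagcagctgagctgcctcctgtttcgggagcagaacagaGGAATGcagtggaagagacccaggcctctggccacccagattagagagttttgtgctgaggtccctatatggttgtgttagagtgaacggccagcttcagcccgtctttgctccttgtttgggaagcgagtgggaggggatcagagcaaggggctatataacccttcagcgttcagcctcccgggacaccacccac

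Postn, chr3:54360857-54361156, plus strand, GRCm38.p6 (RefSeq): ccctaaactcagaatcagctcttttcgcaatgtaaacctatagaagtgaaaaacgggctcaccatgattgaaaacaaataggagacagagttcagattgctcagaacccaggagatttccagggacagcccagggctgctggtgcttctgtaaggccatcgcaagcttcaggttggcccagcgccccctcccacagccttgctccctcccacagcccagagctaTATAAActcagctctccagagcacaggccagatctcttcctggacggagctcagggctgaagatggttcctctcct

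Decorin and lumican were lower in A159V under both treatments. Dcn had 251, 161 and 324 CPM in WT IgG and 101, 117 and 71.3 CPM in A159V IgG. Under anti-PD1 it had 230, 260 and 403 CPM in WT and 56.2, 103 and 86.8 CPM in A159V. The lowest WT sample lay above the highest A159V sample under each treatment. The log2 fold changes were −1.35 (SE 0.30, adjusted p = 0.00624) under IgG and −1.86 (SE 0.30, adjusted p = 0.0012) under anti-PD1, by edgeR. Lum had 11.1, 4.40 and 6.93 CPM in WT IgG and 1.69, 1.68 and 0.744 CPM in A159V IgG. In WT anti-PD1 it had 11.5, 15.7 and 22.4 CPM, and in A159V anti-PD1 1.36, 1.44 and 1.61 CPM. The WT anti-PD1 samples were the highest of the 12, and the 6 A159V samples were the lowest. The log2 fold changes of Lum were −2.44 (SE 0.39, adjusted p = 0.000923) and −3.49 (SE 0.39, adjusted p = 0.000105, edgeR), and without WT IgG replicate 1 the first was −2.11 (adjusted p = 0.00223).

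Dcn (97479609 to 97518143) and Lum (97565128 to 97572703) lie on the plus strand of chromosome 10 in GRCm38, in a cluster of proteoglycan genes with Kera and Epyc. Epyc, which encodes epiphycan, was lower as well, with log2 fold changes of −2.58 under IgG (SE 0.53, adjusted p = 0.00425) and −3.50 under anti-PD1 (SE 0.54, adjusted p = 0.000881, edgeR), from means of 2.88 and 4.80 CPM in WT to 0.476 and 0.415 CPM in A159V. Epyc passed the filter on low counts only through the WT samples. It was also the gene most like Lum among all genes tested, with a root mean square difference of 0.38 on the log2 scale over the 12 samples after each gene was centred on its own mean. Kera, which encodes keratocan, had at most 2 counts in any sample. Btg1 (96617006 to 96622809), an antiproliferative gene and the nearest tested gene before the cluster, was also lower (−1.21 and −1.10, adjusted p = 0.000101 and 0.000168, edgeR). Eea1 (95940650 to 96045518), a tested gene beyond Btg1, did not pass under either treatment (0.16 and −0.29, adjusted p = 0.653 and 0.442, edgeR). These neighbors were chosen after their values were seen.

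Fibronectin, the most abundant member, had a different pattern. Fn1 (chromosome 1, 71585520 to 71653200, minus strand) had 529, 1253 and 2193 CPM in WT IgG and 2246, 3525 and 4368 CPM in A159V IgG. The groups did not overlap, but the highest WT IgG sample and the lowest A159V IgG sample lay close together. The log2 fold change was 1.35 (SE 0.39, adjusted p = 0.0226, edgeR). The call was lost without A159V IgG replicate 2 (adjusted p = 0.0568), without A159V IgG replicate 5 (0.0733) and without WT IgG replicate 2 (0.0831), as well as with only the 6 IgG samples fitted (0.109), and without WT IgG replicate 1 the change was 0.92 (adjusted p = 0.0454, edgeR). Under anti-PD1 the order turned, with 2662, 2638 and 3600 CPM in WT and 1634, 2261 and 1990 CPM in A159V. These groups did not overlap either, and the log2 fold change of −0.60 (SE 0.39, adjusted p = 0.292, edgeR) did not pass the threshold. The interaction of genotype and treatment was −1.95 for Fn1 (SE 0.55, adjusted p = 0.18, edgeR), and it did not pass either. With only the 6 anti-PD1 samples fitted, the change under anti-PD1 was −0.68 (adjusted p = 0.00551, edgeR).

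Fn1 was low in the libraries whose signal fell with exon length. WT IgG replicates 1 and 2, with the slopes of −0.23 and −0.09, had its lowest levels of all 12 samples, and Fn1 has the longest exon total of the 10 genes (11685 bases). The part of this trend in the Fn1 values was not tested beyond the setting that follows. With the trend of log2 CPM on exon length removed in each sample, a setting chosen after seeing the data, the change under IgG was 1.26 (adjusted p = 0.0112, edgeR). The genes most like Fn1 were Igf2r, Gatad2b and Aak1 (root mean square differences of 0.26, 0.28 and 0.29).

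**Figure D4:**
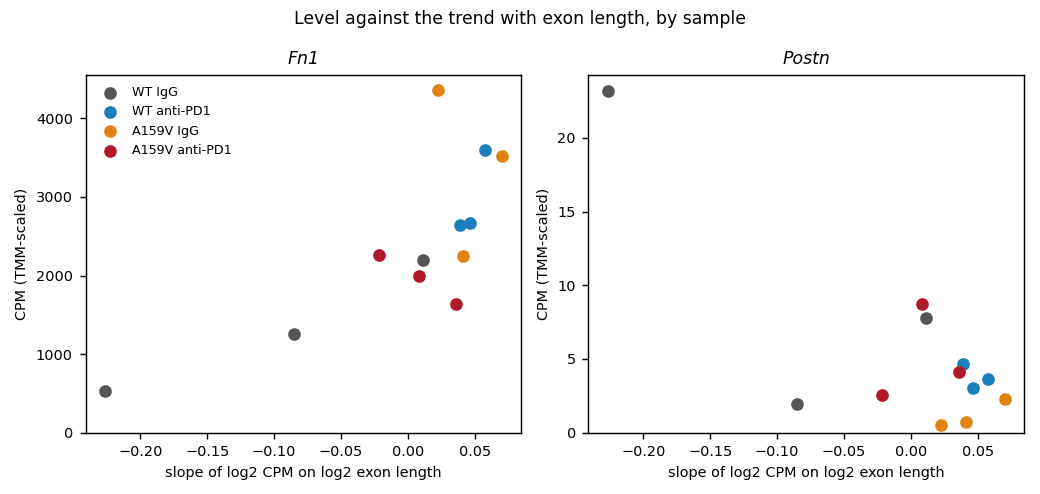
CPM of Fn1 (left) and Postn (right) against the slope of log2 CPM on log2 exon length, 1 point per sample, colored by group. WT IgG replicate 1, at a slope of −0.23, has the lowest Fn1 level (529 CPM) and the highest Postn level (23.2 CPM) of the 12 samples.

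Periostin moved the other way, and the size of its change depended in part on WT IgG replicate 1. Postn (chromosome 3, 54361109 to 54391037) had 424, 32 and 155 counts in WT IgG and 14, 48 and 9 counts in A159V IgG, or 23.2, 1.96 and 7.78 CPM against 0.74, 2.31 and 0.478 CPM. The groups overlapped, since WT IgG replicate 2 lay below A159V IgG replicate 2. The log2 fold change was −3.20 (SE 0.78, adjusted p = 0.0102, edgeR). With WT IgG replicate 1 left out it was −2.11 (adjusted p = 0.0418, edgeR). Under anti-PD1 Postn had 3.05, 4.63 and 3.62 CPM in WT and 4.09, 2.55 and 8.73 CPM in A159V, with overlap and a log2 fold change of 0.45 (SE 0.72, adjusted p = 0.694, edgeR). Without A159V anti-PD1 replicate 3, its highest sample there, the value was −0.17.

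The PDGF receptors were present in every sample at 11.9 CPM or more. Pdgfra (chromosome 5, 75152292 to 75198215) had 26.3, 42.5 and 69.0 CPM in WT IgG and 63.6, 85.0 and 62.9 CPM in A159V IgG, with overlap (0.62, SE 0.28, adjusted p = 0.113, edgeR). It passed the threshold only without WT IgG replicate 4 among the samples left out in turn (1.04, adjusted p = 0.00723, edgeR). Under anti-PD1 it had 69.4, 61.7 and 96.5 CPM in WT and 61.0, 58.4 and 60.6 CPM in A159V. The groups did not overlap, and the difference did not pass the threshold (−0.34, SE 0.27, adjusted p = 0.404, edgeR). Pdgfrb had 24.4, 26.2 and 56.3 CPM in WT IgG and 21.3, 22.4 and 24.0 CPM in A159V IgG (−0.66, SE 0.34, adjusted p = 0.159, edgeR). Under anti-PD1 it had 40.5, 40.5 and 76.2 CPM in WT and 11.9, 22.6 and 18.5 CPM in A159V, and it fell by 1.57 on the log2 scale (SE 0.34, adjusted p = 0.00647, edgeR). Of the receptors only Pdgfrb passed the threshold in a genotype comparison, under anti-PD1. Its groups did not overlap under either treatment, though under IgG 24.4 CPM in WT lay close to 24.0 CPM in A159V. The difference between the receptors was not tested.

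Of the other genes of the PDGF axis, 2 of 5 were tested. Pdgfc, a ligand of Pdgfra, rose in A159V under IgG, from 6.98 to 25.7 CPM (1.88, SE 0.29, adjusted p = 0.000844), and under anti-PD1, from 9.24 to 28.8 CPM (1.64, SE 0.29, adjusted p = 0.00181, edgeR). Pdgfa, another ligand, had 77.3 and 63.1 CPM in WT and A159V IgG and did not pass. Pdgfb, Pdgfd and Pdgfrl were too low to be tested.

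Fap, Acta2 and Thy1 were near the lower end of what could be measured. Fap (chromosome 2, 62500943 to 62574075) had 2.73, 3.91 and 2.06 CPM in WT IgG and 1.22, 0.72 and 1.33 CPM in A159V IgG, with no overlap, and it fell by 1.41 on the log2 scale (SE 0.35, adjusted p = 0.0106, edgeR). Under anti-PD1 it had 2.07, 2.61 and 4.06 CPM in WT and 2.12, 2.13 and 1.78 CPM in A159V, with overlap (−0.53, SE 0.33, adjusted p = 0.271, edgeR). At 15 to 73 counts per sample Fap was counted but sparse.

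Acta2 (chromosome 19, 34241090 to 34255590) had between 5 and 52 counts in every sample. It had 2.51, 0.551 and 0.703 CPM in WT IgG and 1.38, 1.54 and 1.70 CPM in A159V IgG, where WT IgG replicate 1 lay above and the other WT samples below the A159V samples (0.29, SE 0.51, adjusted p = 0.702, edgeR). Without WT IgG replicate 1 the log2 fold change was 1.22 (adjusted p = 0.0643, edgeR), and without WT IgG replicate 2 it was −0.13. Under anti-PD1 the WT samples had 0.569, 0.603 and 0.278 CPM and the A159V samples 2.56, 1.28 and 2.89 CPM, with no overlap, and Acta2 rose, with a log2 fold change of 2.20 (SE 0.56, adjusted p = 0.0145, edgeR). The call was lost without A159V anti-PD1 replicate 3 (1.99, adjusted p = 0.0589) and without WT anti-PD1 replicate 3 (1.93, adjusted p = 0.0755, edgeR).

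Thy1 (chromosome 9, 44043384 to 44048579) had 123, 8 and 41 counts in WT IgG and 85, 83 and 79 counts in WT anti-PD1. In A159V it had 1, 4 and 8 counts under IgG and 3, 3 and 15 counts under anti-PD1. On the CPM scale the WT samples lay between 0.489 and 6.72 and the A159V samples between 0.0529 and 0.834. The groups did not overlap under either treatment, but the lowest WT IgG sample (0.489 CPM) lay close to the highest A159V IgG sample (0.425 CPM). Only 1 A159V sample, beside 5 WT samples, reached the level the filter asked for. As with Grem1, passing the filter in this way favored a lower value in A159V. With that limit, Thy1 fell by 3.76 under IgG (SE 0.89, adjusted p = 0.00857) and by 3.62 under anti-PD1 (SE 0.82, adjusted p = 0.00826, edgeR), and its log2 fold change was −2.57 with WT IgG replicate 1 left out (adjusted p = 0.0343, edgeR).

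Leukocyte genes, of which Cd8a was chosen after its values were seen, moved in both directions beside Thy1. Ptprc, the pan-leukocyte antigen CD45, had 17, 3 and 56 counts in WT IgG, 174, 212 and 134 in WT anti-PD1, and at most 5 counts in any A159V sample. Cd8a, a coreceptor of cytotoxic T cells, had 33, 85 and 36 counts in WT anti-PD1, at most 6 counts in WT IgG and at most 1 count in A159V. The genes most like Thy1 over the 12 samples were Ccr2, a chemokine receptor of monocytes and T cells, Trbc1, a constant region of the T cell receptor, and Tmsb4x (root mean square differences of 0.77, 0.80 and 0.81). The summed level of the 16 leukocyte markers ranged in WT from 87.0 to 207 CPM with IgG and from 61.2 to 137 CPM with anti-PD1, and in A159V from 69.2 to 86.0 CPM and from 61.3 to 84.8 CPM. Of these markers 10 were tested. In A159V IgG versus WT IgG, 3 were lower (Ptprc, Cd74 and Nkg7) and 1 was higher. Cd68, a lysosomal protein of macrophages, rose from 23.2 to 40.7 CPM (0.81, SE 0.19, adjusted p = 0.00826, edgeR), and Lyz2, lysozyme of myeloid cells, had 3.95 and 6.08 CPM and did not pass. Cd74, the invariant chain of MHC class II, fell from 98.2 to 26.8 CPM (−1.87, adjusted p = 0.0183), and without WT IgG replicate 1 neither it nor Nkg7 passed (adjusted p = 0.0719 and 0.138, edgeR). The macrophage marker Adgre1 had at most 2 counts. Under anti-PD1, 5 were lower, all of which passed the filter on low counts only through the WT samples, as did 6 of the 10 tested. In WT IgG replicate 1, where Thy1 was highest, Ptprc was not (0.929 CPM against 2.81 CPM in replicate 4), while the fibroblast genes Dpt and Pi16 were at their highest. The part of T cells in the Thy1 levels was not tested.

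The other fibroblast markers of the list moved the same way as most of the 10 genes under IgG. Of 22 listed, 18 were tested in A159V IgG versus WT IgG, with 10 lower DEGs and 1 higher DEG and a median log2 fold change of −2.35. Without WT IgG replicate 1 there were 7 lower DEGs and no higher one, with a median of −1.32. Of the 10 lower, 4 (Fbln1, Mfap4, Clec3b and Pdpn) passed the filter on low counts only through the WT samples, which favors lower values in A159V. Fbln1 and Clec3b were also among the calls lost without WT IgG replicate 1. Serpinf1, which encodes the secreted serpin PEDF, fell from 70.3 to 14.6 CPM (−2.26, SE 0.28, adjusted p = 0.000217). Pdpn, the surface glycoprotein podoplanin, fell from 4.78 to 0.358 CPM (−3.71, SE 0.57, adjusted p = 0.000816), Medag from 6.38 to 1.18 CPM (−2.44) and Mfap4, a microfibril protein, from 2.69 to 0.101 CPM (−4.64, all edgeR). Igfbp6 and Scara5, abundant members of the list, also fell (−0.51 and −1.09), and Fbln2, a matrix glycoprotein, rose from 30.9 to 48.0 CPM (0.63, adjusted p = 0.0291, edgeR). Igfbp6 and Fbln2 did not pass without WT IgG replicate 1 (−0.49 and 0.53, adjusted p = 0.0681 and 0.0995, edgeR). Under anti-PD1, 7 of the 18 were lower and 1 was higher in A159V, with a median of −1.49. Tcf21, a transcription factor of fibroblasts, had at most 1 count in any sample.

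**Figure D5:**
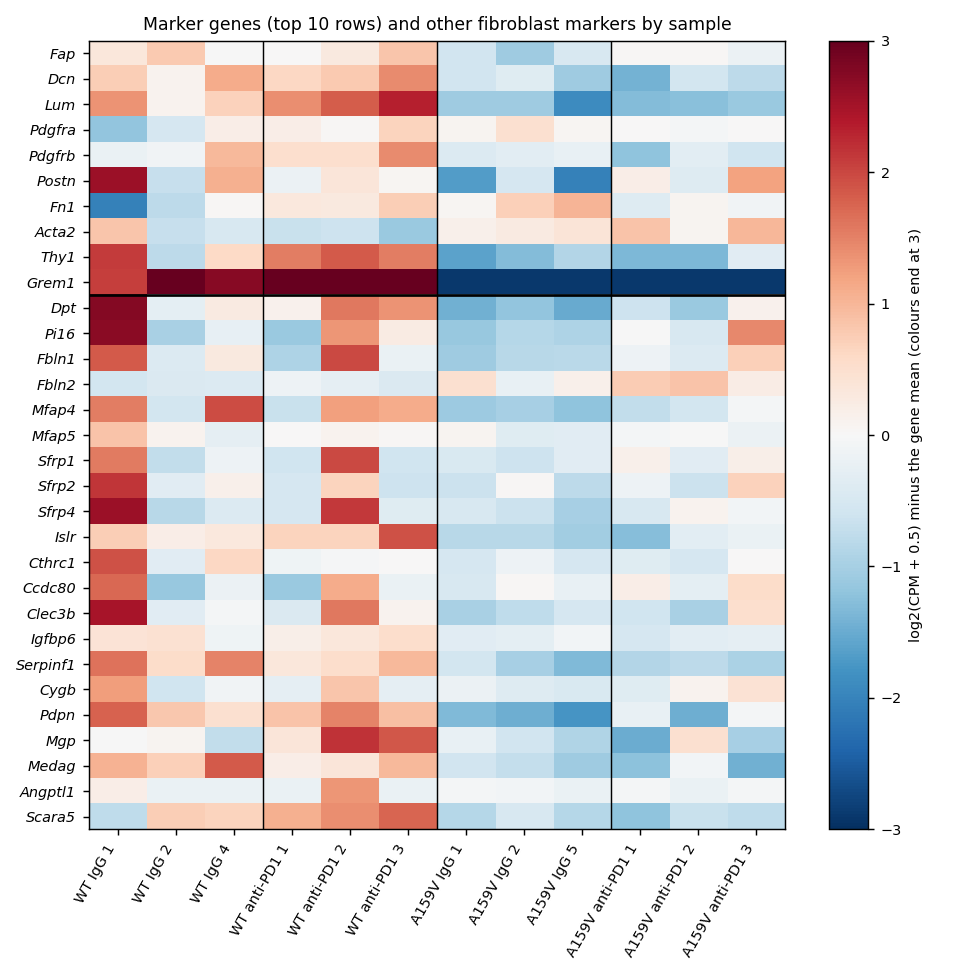
Each row is a gene and each column a sample, ordered by genotype and then treatment, with the 10 marker genes above the line and other fibroblast markers below it (Tcf21, at most 1 count, left out). Color gives log2(CPM + 0.5) minus the gene mean, cut off at 3 on both sides, and WT IgG replicate 1 is red for Postn, Thy1, Dpt and Pi16 but blue for Fn1 and Pdgfra.

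WT IgG replicate 1 divided the 10 genes. Against the mean of WT IgG replicates 2 and 4 its level was 4.76 times as high for Postn, 5.28 times for Thy1, 4.01 times for Acta2 and 1.97 times for Lum. Dcn and Fap were level with the others (ratios of 1.04 and 0.915), and Pdgfrb, Grem1, Pdgfra and Fn1 were lower (0.591, 0.555, 0.473 and 0.307). Dpt (dermatopontin) and Pi16, markers of resident fibroblasts, were 8.13 and 11.7 times as high in this library, and Bgn, Col1a1 and Col1a2 were 4.10, 2.29 and 5.26 times as high. It held the highest of the 12 values for 10 of 18 other fibroblast markers tested (55.6%), beside 21.4% of all genes. Of the 10 genes it did so for 2 (20%), Postn and Thy1. WT anti-PD1 replicate 3 held the highest value for 6 of the 10 genes (60%), beside 12.2% of all genes. These were Fap, Dcn, Lum, Pdgfra, Pdgfrb and Grem1. Dpt, Pi16, Bgn and Col1a2 were chosen here after their values were seen. Whether the length trend, host fibroblasts or both set the ratios of WT IgG replicate 1 was not tested.

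A159V anti-PD1 replicate 3 was the highest A159V sample for Postn, Acta2 and Thy1 (8.73, 2.89 and 0.834 CPM), and also for Pi16 (180 counts) and Dpt (37 counts). With both this sample and WT IgG replicate 1 dropped, 6 of the 10 genes were DEGs under each treatment. Under IgG, Fn1 was the call lost (0.92, adjusted p = 0.0635, edgeR), and Dcn, Lum, Fap, Postn, Thy1 and Grem1 remained. This setting was chosen after seeing the data.

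Among the small leucine-rich proteoglycans outside the 10 genes, 7 of 10 were tested and 4 fell in A159V IgG versus WT IgG, with none higher and a median of −2.58. Bgn (biglycan) fell by 3.46 on the log2 scale (SE 0.69, adjusted p = 0.0036), Prelp by 2.61 and Aspn (asporin) by 2.74 (adjusted p = 0.00458 and 0.0249, edgeR), beside Epyc. Without WT IgG replicate 1 the values were −2.51 for Bgn, −1.96 for Prelp and −1.54 for Aspn (adjusted p = 0.00985, 0.0135 and 0.144, edgeR), so that Aspn was no longer called. Aspn, Prelp and Epyc passed the filter on low counts only through the WT samples. Ogn (osteoglycin) had 2.22 and 0.705 CPM and did not pass under IgG. Under anti-PD1, 3 of the 7 were lower and none was higher.

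The fibrillar collagens divided by chain. Under IgG, Col3a1 fell from 358 to 56.6 CPM (−2.66, SE 0.33, adjusted p = 0.000214) and Col1a1 from 142 to 17.8 CPM (SE of the log2 fold change 0.48, adjusted p = 0.00105), whereas Col5a3 rose from 222 to 896 CPM (2.01, SE 0.16, adjusted p = 1.83e-05) and Col11a1 from 6.44 to 17.1 CPM (1.41, adjusted p = 0.00121, edgeR). In all, 4 of 7 were lower and 2 higher. Without WT IgG replicate 1, 3 were lower and 2 higher, with Col1a1 at −2.54 (adjusted p = 0.00269) and Col1a2 no longer called (−1.69, adjusted p = 0.0886, edgeR). Col5a1 had 342 and 396 CPM and did not pass. Under anti-PD1, 2 were lower and 1 was higher, with Col3a1 at −2.94 and Col5a3 at 2.12. Col3a1 was 1 of the 3 genes most like Lum.

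The listed genes of the mesenchymal program, whose source in these samples was not tested, also moved in both directions. Of 20 genes, all tested, 9 were lower and 3 higher in A159V IgG versus WT IgG, with a median of −0.26. Vim fell by 0.75 (SE 0.14, adjusted p = 0.00206), Sparc by 1.04 (SE 0.18, adjusted p = 0.00144) and Spp1 by 0.70 (SE 0.17, adjusted p = 0.00949, edgeR). Prrx1, a mesenchymal transcription factor, fell from 40.8 to 10.5 CPM (−1.95, adjusted p = 0.000868), and Vcan, the proteoglycan versican, from 4.66 to 1.16 CPM (adjusted p = 0.00022, edgeR). Fstl1 rose from 126 to 299 CPM (1.24, SE 0.19, adjusted p = 0.000696, edgeR). Under anti-PD1, 8 were lower and 2 higher.

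Epithelial genes were few. Of 7 tested, 3 rose in A159V IgG (Cldn4, Esrp1 and Tjp1) and none fell. Cldn4, a tight junction protein, rose from 0.422 to 3.51 CPM (3.03, SE 0.59, adjusted p = 0.00295), Esrp1, an epithelial splicing factor, from 0.672 to 2.67 CPM (1.99, adjusted p = 0.00212), and Tjp1 from 98.9 to 206 CPM (1.06, adjusted p = 0.00786, edgeR). Cldn4 passed the filter on low counts only through the A159V samples. Under anti-PD1, 2 rose and Cdh1, which passed only through the WT samples, fell from 0.947 to 0.307 CPM.

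Acta2 was read beside mural and contractile genes. Of 18, 12 were tested under IgG, with 4 higher and 2 lower in A159V. Actg2, another smooth muscle actin, rose from 1.79 to 4.22 CPM (1.23, SE 0.22, adjusted p = 0.00176), and Mcam rose from 9.65 to 16.1 CPM (0.74, adjusted p = 0.00729, edgeR). The pericyte marker Cspg4 fell from 8.98 to 0.932 CPM (−3.27, SE 0.69, adjusted p = 0.00456), and without WT IgG replicate 1 its change was −3.77 (adjusted p = 0.00154, edgeR). Rgs5, another pericyte marker, had means of 0.91 and 0.032 CPM, and it was called as lower. It passed the filter on low counts only through the WT samples, which favors lower values in A159V. The contractile genes Cald1, Tpm1 and Tpm2 had means above 100 CPM in every group, and of these Cald1 rose in A159V IgG (0.64, adjusted p = 0.0262), a call lost without WT IgG replicate 1 (0.38, adjusted p = 0.0821, edgeR). Without that library 2 of the 12 were higher and 2 lower. Kcnj8 had at most 3 counts in any sample. Under anti-PD1, 2 of the 12 were higher and 3 lower.

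Grem1 acts as an antagonist in the BMP axis. Of 17 genes of this axis, 13 were tested, and 3 were DEGs under IgG, beside 28% of all genes. There was 1 higher (Bmp1, a procollagen protease, 0.69, adjusted p = 0.00486) and there were 2 lower, the BMP target genes Id3 (from 35.0 to 13.4 CPM, −1.38, SE 0.30, adjusted p = 0.00518) and Id1 (from 34.6 to 19.2 CPM, −0.85, SE 0.29, adjusted p = 0.0466, edgeR), and Id1 did not pass without WT IgG replicate 1 (−0.69, adjusted p = 0.134, edgeR). Under anti-PD1, 3 were lower and none was higher. The ligand Bmp4 and the antagonist Nog had at most 2 counts in any sample. In the TGF-beta axis, which induces several of the 10 genes in fibroblasts, all 17 genes were tested, with 4 higher and 5 lower under IgG and none higher and 8 lower under anti-PD1. Without WT IgG replicate 1, 1 was higher and 6 were lower under IgG.

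In WT tumor cells none of the 10 genes passed the threshold in anti-PD1 versus IgG (edgeR), beside 0.628% of all genes (0.495% higher and 0.132% lower). Of the 10, 8 had a log2 fold change above 0, with a median of 0.53 beside 0.01 over all genes, and 5 had an unadjusted p under 0.05, beside 27.5% of all genes. Lum and Fn1 did not overlap between these groups, beside 34.6% of all genes. Lum had means of 7.49 ± 3.41 CPM in WT IgG and 16.5 ± 5.52 CPM in WT anti-PD1 (SD, n = 3, log2 fold change 1.14, SE 0.34, adjusted p = 0.0849, edgeR). Fn1 had 1325 ± 834 CPM and 2967 ± 548 CPM (1.16, SE 0.39, adjusted p = 0.102, edgeR). DESeq2 called both (adjusted p = 0.0313 and 0.0321). Postn and Acta2 had log2 fold changes of −1.55 and −1.38 and did not pass, and without WT IgG replicate 1 the values were −0.39 for both.

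In A159V tumor cells none of the 10 genes passed in anti-PD1 versus IgG (edgeR and DESeq2), beside 0% of all genes (3.63% at an unadjusted p under 0.05), and 2 had an unadjusted p under 0.05, Fap and Postn. Fap had 1.09 ± 0.324 CPM under IgG and 2.01 ± 0.199 CPM under anti-PD1 (0.89, SE 0.35), and Postn 1.17 ± 0.988 and 5.12 ± 3.22 CPM (2.10, SE 0.78, adjusted p = 1 for both, edgeR). Fap and Postn were higher and Pdgfra lower with no overlap, beside 11% of all genes. Lum had 1.37 ± 0.544 and 1.47 ± 0.129 CPM, Dcn 96.4 ± 23.2 and 81.9 ± 23.6 CPM, and Grem1 stayed at 0 counts. The genotype by treatment interaction passed for none of the 10 genes (edgeR), beside 0.00697% of all genes, with 4 unadjusted p under 0.05 (Fn1, Postn, Pdgfra and Acta2), beside 17.6% of all genes. DESeq2 called 1 of the 10 there, Fn1 (−1.95, adjusted p = 0.0246).

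Between the 10 genes the likeness of pattern over the 12 samples was uneven. Dcn and Pdgfrb were the most alike pair (root mean square difference of 0.40 on the log2 scale), followed by Pdgfra and Fn1 (0.41), and Dcn and Lum differed by 0.78. Among all genes tested, Adamts4, Shroom4 and Maml1 were most like Pdgfra (0.14 to 0.15), B3gnt9, Mertk and Ttc39a most like Pdgfrb (0.15 to 0.26), and Rin2, Sema7a and Btbd2 most like Dcn (0.24 to 0.26). Adamts15 and Cxcl14 were closest to Postn (0.49 and 0.50), Nppb and Aif1l to Acta2 (0.37 and 0.39), and Plet1 and Adamtsl3 to Grem1 (1.40 for both). For Grem1 no gene was close, since its own root mean square deviation from its mean was 3.99.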

How the data were processed

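PolyA RNA of the isolated tumor cells was sequenced in 12 samples, 4 groups of 3. As the methods state, the authors aligned paired reads to mm10 with STAR and counted reads per gene with summarizeOverlaps, and they deposited raw counts per gene and sample without normalization. How overlaps and strand were handled in counting is not given in the sources used here, so overlapping and antisense genes are uncertain. The labels do not say whether same-numbered samples shared anything but the number, and the samples came from different mice.

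Counts were tested with edgeR 4.0.16 (limma 3.58.1, R 4.3.3): TMM, filterByExpr over the 4 groups (14340 genes), quasi-likelihood tests on all 12 samples, Benjamini-Hochberg adjustment over all genes. DEGs were genes with a log2 fold change over 0.3 in either direction and an adjusted p below 0.05. Standard errors were the log2 fold change over the square root of F. Exon lengths, symbols and coordinates came from GENCODE M21 (31980 of 33217 Ensembl identifiers matched). The alternatives were DESeq2 1.42.0, voom, other scalings and filters, fits of single contrasts, marker scores as covariates, a replicate block and leaving out samples. The code was tested on simulated data. Named were all 10 genes and, of each companion list, the genes with the smallest p (up to 4 DEGs under IgG), the 3 most abundant and those at 3 counts or fewer throughout, plus genes said to be chosen after their values were seen. The members and lists were chosen with earlier results of these data known.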

Additional observations from a re-analysis of the deposited data

How the results depend on the processing

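For A159V IgG versus WT IgG, 7 of the 10 genes were DEGs in edgeR, 6 to 8 when samples were left out singly, 4 with at least 10 counts required in every sample (which removes Postn, Acta2, Thy1 and Grem1 from the test), 2 with the leukocyte score as a covariate, 5 with only the 6 IgG samples fitted and 8 with the replicate block. Under anti-PD1 the count of 6 became 5 to 6 with samples left out, 3 with at least 10 counts in every sample, 1 with the leukocyte score, 3 with the endothelial score, 7 with the replicate block and 8 with only the 6 anti-PD1 samples fitted. With the leukocyte score Thy1 reversed to 0.77 (adjusted p = 0.934, edgeR). The counts over all genes moved too. Under anti-PD1, 2352 genes were higher and 2968 lower of 13833 with only the 6 anti-PD1 samples fitted. There were 274 and 627 of 14340 with the endothelial score, and 887 and 1127 of 12137 with at least 10 counts. Under IgG, 556 and 843 of 13575 were called with only the 6 IgG samples fitted, and 1219 and 1562 of 12137 with at least 10 counts. For WT anti-PD1 versus WT IgG the count of 0 became 2 without a filter on low counts, 2 with DESeq2, 3 with the replicate block, and 0 to 3 with samples left out, where 3 (Fn1, Pdgfra and Pdgfrb) came without WT IgG replicate 4. For the interaction the count of 0 became 1 with DESeq2, 3 with the replicate block and 0 to 3 with samples left out (the same 3 genes without WT IgG replicate 4). With samples left out, the counts over all genes ran from 1 to 3458 for anti-PD1 in WT and from 0 to 1182 for the interaction. A159V anti-PD1 versus A159V IgG gave 0 in every alternative, also with samples left out (0 to 0). The interaction was not run with single contrasts, which lack its groups.

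Same-numbered samples of different groups correlated between −0.18 and 0.20 in their deviations from the group means, over 0.1 in 3 of 13 pairs, and 3 of 10 samples were most like a sample of their own number, so the block has no basis in the design. It moved the all-gene counts to 5867 and 5018 for the genotype comparisons, 4650 for anti-PD1 in WT and 2760 for the interaction, where edgeR without it gave 4010, 3075, 90 and 1. DESeq2 gave 1441 for anti-PD1 in WT and 294 for the interaction. The split of higher and lower DEGs under IgG, 2231 and 1779 with TMM, was 1680 and 2052 with RLE and 1337 and 2313 with upper-quartile scaling, which moved the median of all genes to −0.12. Under anti-PD1 it was 1613 and 1462, 1123 and 1672, and 931 and 1788. No DEG of the 10 genes in the genotype comparisons changed its call or direction with RLE or upper-quartile scaling. Sparse genes (Fap, Acta2, Thy1 and Postn) rest on few counts.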
